A study of Mus musculus with 9 samples.

Results

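The wild-type line of a study of Kdm6a in mouse pancreatic cancer was examined here through the 3 histone marks profiled in it by chromatin immunoprecipitation followed by sequencing (ChIP-seq). Its members are all regions on autosomes 1 to 19 in the deposited lists of trimethylated lysine 4 of histone H3 (H3K4me3), trimethylated lysine 27 (H3K27me3) and acetylated lysine 27 (H3K27ac). They number 15467, 26240 and 19747, which is 61454 of the 62587 regions listed for the line and of the 185632 regions in all 9 lists of the series. Per the labels, the line is male and KDM6A-WT, its source is pancreas, its strain is mixed C57BL/6-SV129, and it grew in F12/DMEM with EGF and no treatment. The series also profiled these marks in Kdm6a knockout lines, 1 female and 1 male, which are not compared here. Each mark had 1 library from 1 line, so the spread between cultures, between lines and between repeat libraries is unknown, and no p-value was computed. The labelled tissue was not checked against marker genes, because no gene was placed on the genome build of these lists, mm9.

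H3K4me3 is deposited at the start sites of active and poised genes. H3K27ac is found at active promoters and at active enhancers, where H3K4me3 is usually low. H3K27me3 is written by Polycomb repressive complex 2 and covers silenced genes, often developmental regulators, in broad domains. A lysine 27 tail can be acetylated or trimethylated but not both, and KDM6A is one of the demethylases that remove the methyl groups. Promoters with both H3K4me3 and H3K27me3 are known as bivalent and were first described in embryonic stem cells.

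A region is a stretch that the peak caller SICER joined from neighbouring windows enriched in reads. The whole number listed beside it was taken as its count of reads. All region ends lie on a grid of 200 bp. H3K27me3 covered the most of the autosomes, 5.85% in 144.5 Mb, followed by H3K27ac with 4.40% and H3K4me3 with 3.23%. H3K4me3 regions had the highest median width, 5.0 kb, against 4.2 kb for H3K27ac and 3.8 kb for H3K27me3. This order holds for the lists as deposited. With each list cut from the highest count down to the covered length of H3K4me3, it changed. The medians were then 9.6 kb for H3K27me3, 6.6 kb for H3K27ac and 5.0 kb for H3K4me3. That cut kept 6318 H3K27me3 and 9840 H3K27ac regions but all 15467 H3K4me3 regions. Longer regions tend to have higher counts, so the cut favours long regions in the lists it shortens. The upper ends were also in another order. Regions of 20 kb or more numbered 57 for H3K4me3, 401 for H3K27ac and 779 for H3K27me3, and they held 1.77, 10.1 and 17.2% of the length of the mark. The longest region was 48.0 kb for H3K4me3, 81.0 kb for H3K27ac and 171.2 kb for H3K27me3. H3K27me3 regions also lay close to each other, with a median of 2.2 kb to the nearest region of the same mark, against 10.6 kb for H3K27ac and 19 kb for H3K4me3. The caller left gaps of at least 0.4 kb in the H3K4me3 list, 0.8 kb in the H3K27me3 list and 0.6 kb in the H3K27ac list, so near neighbours were joined to a different extent in each. Reads in regions summed to 12587726 for H3K4me3, 2394056 for H3K27me3 and 3940762 for H3K27ac. Library depth is unknown and differs from such a sum, so reads per kb were compared only between regions of the same mark. The median was 132 reads per kb for H3K4me3, 29.8 for H3K27ac and 14.8 for H3K27me3.

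H3K4me3 and H3K27ac lay mostly together, H3K27me3 and H3K27ac were almost separate, and H3K4me3 met H3K27me3 at a minority of regions. At least 1 bp of H3K27ac overlapped 11616 H3K4me3 regions, or 75.1% (95% Wilson interval 74.4 to 75.8%). In the other direction, 11413 H3K27ac regions, or 57.8% (57.1 to 58.5%), overlapped H3K4me3. H3K27me3 and H3K27ac shared little, with 276 regions of each list overlapping the other. These were 1.05% of the H3K27me3 regions (0.935 to 1.18%) and 1.40% of the H3K27ac regions (1.24 to 1.57%). H3K27me3 overlapped 1417 H3K4me3 regions, or 9.16% (8.72 to 9.63%), and 1331 H3K27me3 regions, or 5.07% (4.81 to 5.34%), overlapped H3K4me3. The intervals treat regions as independent and cover counting error only.

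A level for unrelated placement was read from moved lists, in which 1 list of a pair was moved around each chromosome by every multiple of one part in 20 of its length, giving 19 moves. It describes placement and is not a test, because marks share the gene-rich parts of chromosomes and a moved region can fall into sequence where no read can map. Moved lists overlapped 8.09% of the H3K4me3 regions with H3K27ac (7.31 to 8.71% over the moves) and 6.42% of the H3K27ac regions with H3K4me3. The observed shares of this pair were far above that range. For H3K27me3 and H3K27ac the order was the reverse, with moved levels of 8.27% of the H3K27me3 regions and 9.88% of the H3K27ac regions. The H3K4me3 regions met moved H3K27me3 regions in 9.77% of cases (8.88 to 11%), a range that holds the observed 9.16%. With moves of only 1 to 5 Mb the level was 12.6% (10.6 to 15.4%), and the observed share lay below that whole range. The H3K27me3 regions met moved H3K4me3 regions in 6.43% of cases (5.83 to 7.17%), a range wholly above the observed 5.07%. Where this pair stood against its moved level changed with the settings, and the cause was not tested. With the H3K27me3 and H3K27ac lists taken from the highest count down to the covered length of H3K4me3, 79.8 Mb, H3K27me3 overlapped 6.18% of the H3K4me3 regions, against 4.45% for moved lists (3.8 to 5.39%), and H3K4me3 overlapped 13.6% of the H3K27me3 regions, against 10.2%. In lists cut to regions with at least the median count, H3K27me3 overlapped 3.08% of the H3K4me3 regions, against 7.72% (6.77 to 9.29%). By length, H3K4me3 and H3K27ac shared 49.0 Mb, 61.4% of the H3K4me3 length and 45.0% of the H3K27ac length. Their Jaccard index, the length covered by both over the length covered by either, was 0.351 and 0.0198 for moved lists. H3K4me3 and H3K27me3 shared 3.17 Mb, with an index of 0.0143 against 0.0227 for moved lists (0.0199 to 0.0277). H3K27me3 and H3K27ac shared 0.423 Mb, with an index of 0.00167 against 0.0278.

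**Figure D1:**
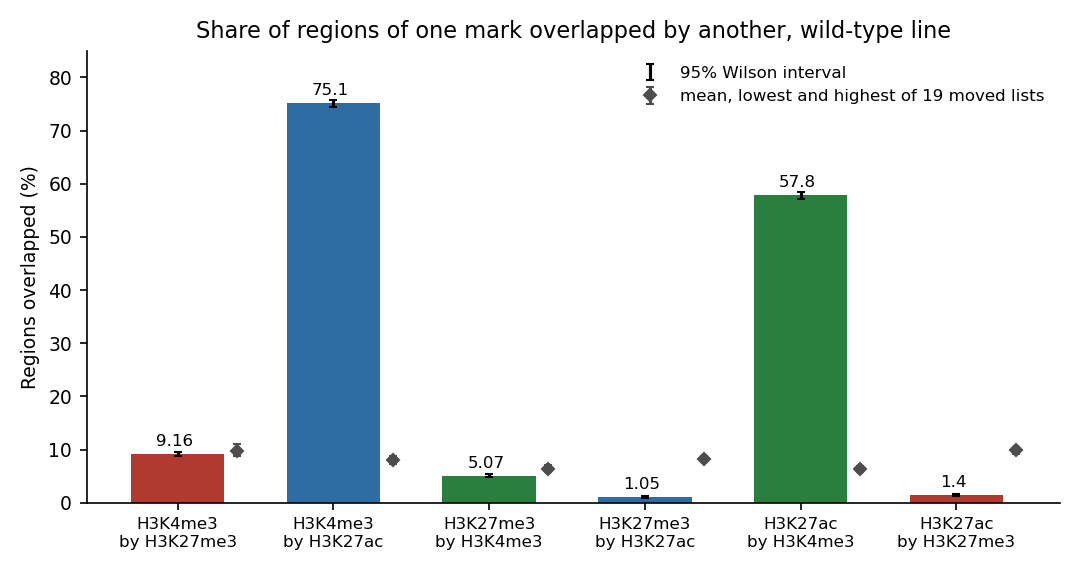
Share of the regions of one mark (percent, y axis) overlapped by at least 1 bp of another mark, for the 6 ordered pairs of marks in the wild-type line. Bars show the share with its 95% Wilson interval, coloured by the overlapping mark, and diamonds show the mean, lowest and highest of 19 moved lists. The bars of H3K4me3 and H3K27ac reach 75.1 and 57.8% against moved levels of 8.09 and 6.42%, those of H3K27me3 and H3K27ac stay at 1.05 and 1.40%, below their moved levels.

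H3K4me3 regions fell into 4 classes by the marks over them. H3K27ac alone overlapped 11269 (72.9%), H3K27me3 alone 1070 (6.92%), both marks 347 (2.24%, 2.02 to 2.49%), and neither mark 2781 (18.0%). Regions with H3K27ac alone had a median width of 5.6 kb and the highest median density, 158 reads per kb. They held 82.9% of the H3K4me3 length and 88.7% of its reads. Regions with H3K27me3 alone were the narrowest and least dense, with medians of 2.4 kb and 55.3 reads per kb, and regions with neither mark had 2.8 kb and 71.5 reads per kb. The 347 regions with both marks resembled the acetylated class, with 6.2 kb and 143 reads per kb. Their lower quartile of width, 4.7 kb, lay above the upper quartile of the H3K27me3 class, 3.6 kb. A wider region can meet another mark more easily, so widths of overlapped and free regions differ in part by construction.

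**Figure D2:**
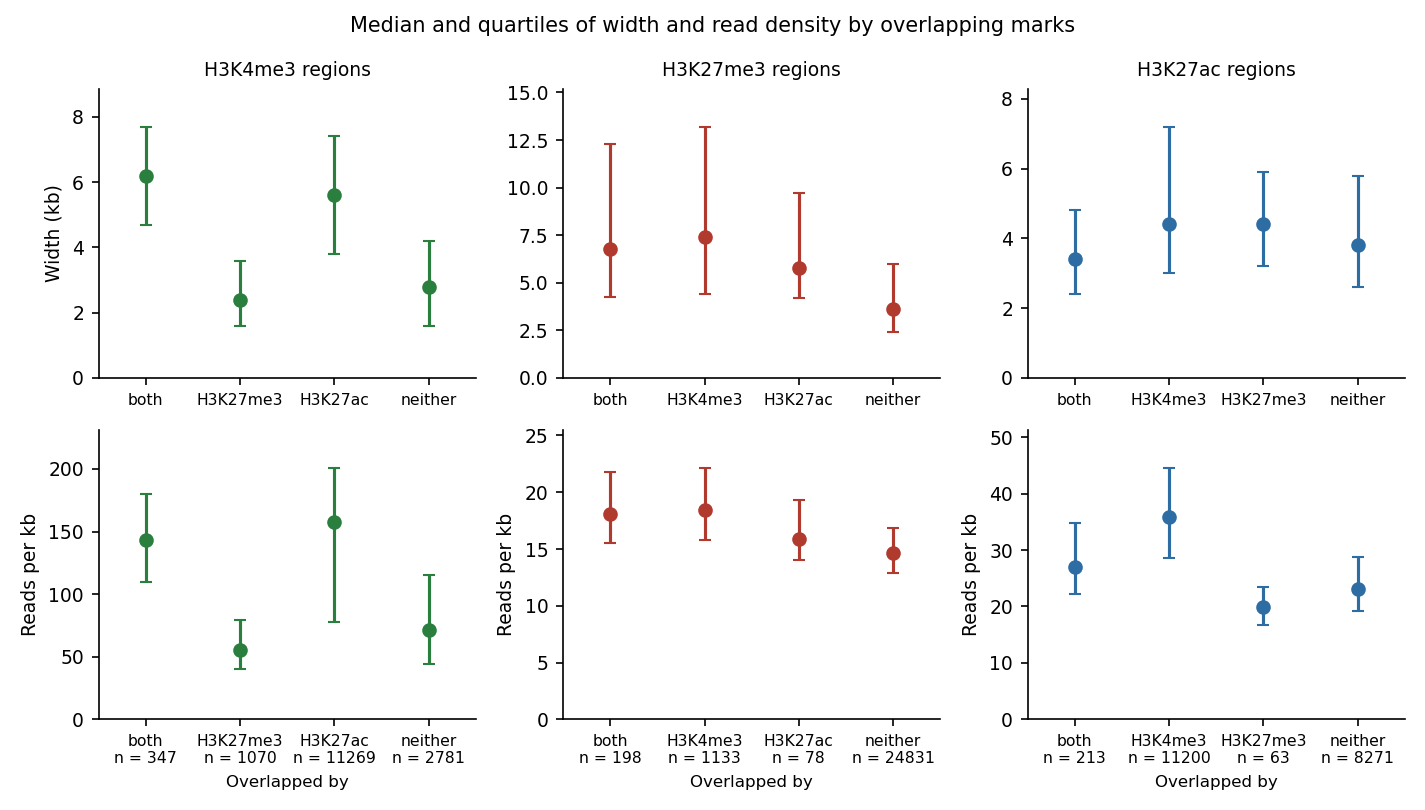
Width in kb (top) and read density in reads per kb (bottom) of H3K4me3, H3K27me3 and H3K27ac regions, split by which of the other marks overlapped them. Points are medians, bars run from the lower to the upper quartile, and n is the number of regions. H3K4me3 regions with H3K27ac or with both marks have median widths of 5.6 and 6.2 kb, above 2.4 and 2.8 kb for those with H3K27me3 alone or neither mark.

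The share of H3K4me3 regions with H3K27ac rose with width, from 34.9% (30.4 to 39.7%) under 1 kb to 58.1% at 2 to under 4 kb, 85.9% at 4 to under 8 kb and 99.3% at 8 to under 16 kb. All 156 regions of 16 kb or more carried it, and moved lists met 17.7% of those. H3K27me3 was at 12.6% (9.73 to 16.2%) of those under 1 kb, 17.1% (15.5 to 18.9%) at 1 to under 2 kb and 15.3% at 2 to under 4 kb. It was at 5.73% at 4 to under 8 kb, 3.70% at 8 to under 16 kb and 6.41% (3.52 to 11.4%) at 16 kb or more. Moved lists gave 7.07% under 1 kb, 7.14% at 1 to under 2 kb, 13.0% at 8 to under 16 kb and 17.9% at 16 kb or more. The observed share was above the moved level in the classes under 4 kb and below it in the wider ones. By read density the course was not even. H3K27ac was at 62.4% of the H3K4me3 regions in the lowest decile of reads per kb, fell to 47.1% in decile 3 and rose to 99.5% in decile 10. H3K27me3 peaked where H3K27ac was lowest, at 19.5% in decile 3 and 18.2% in decile 4, and was at 1.36% in decile 10. Density and H3K27ac were also related in opposite ways in the classes under 4 kb and at 4 to under 8 kb. At 2 to under 4 kb, the 2068 H3K4me3 regions with H3K27ac had a median of 51.0 reads per kb against 65.6 in the 1493 without it. At 4 to under 8 kb the values were 173 reads per kb in 6387 regions with and 117 in 1052 without. Wider regions nearly all carried H3K27ac and were not compared in this way. Among H3K4me3 regions under 4 kb that overlapped H3K27ac, 17.8% shared the H3K27ac region with another H3K4me3 region, against 6.00% at 4 to under 8 kb and 12.2% at 8 kb or more. For 14.1% of those under 4 kb the other region was the wider one.

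**Figure D3:**
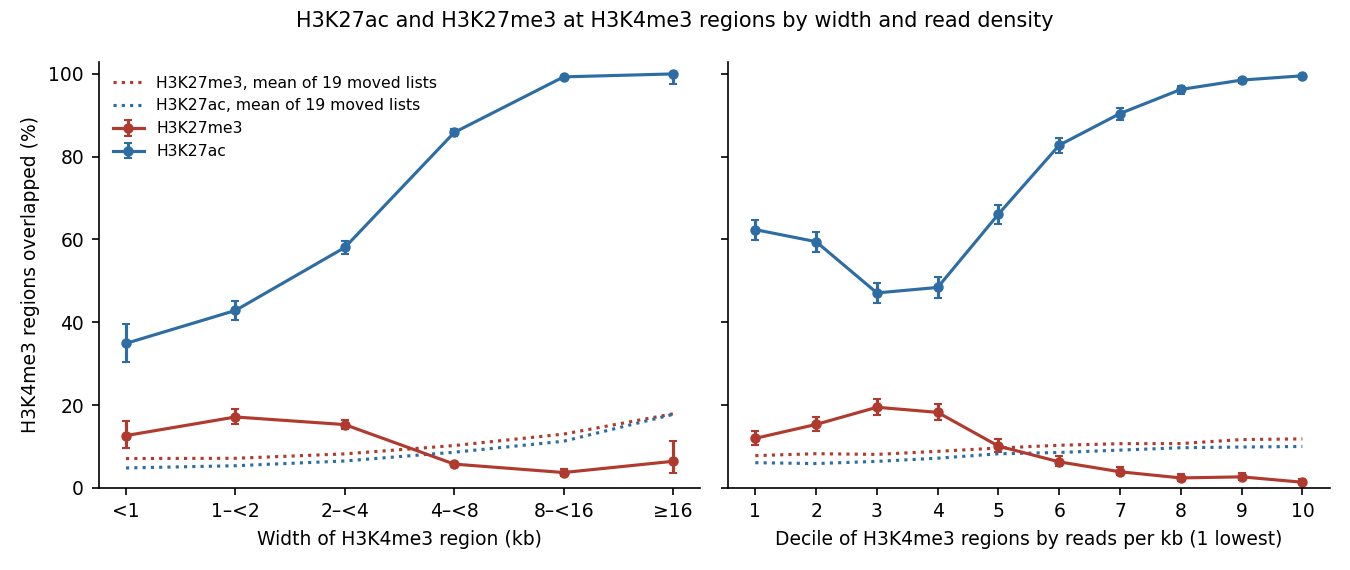
Share of H3K4me3 regions overlapped by H3K27ac (blue) and H3K27me3 (red), in percent, by width class in kb (left) and by decile of reads per kb (right). Points carry 95% Wilson intervals, and dotted lines are the means of 19 moved lists. H3K27ac climbs from 34.9 to 100% with width and dips to 47.1% in decile 3 of density, where H3K27me3 is highest at 19.5%.

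Where 1 H3K4me3 region met 1 H3K27ac region and neither met another, in 10100 pairs, the H3K4me3 region was mostly the wider, with medians of 5.6 and 4.2 kb. H3K27ac lay inside the H3K4me3 region in 48.9% of these pairs, ran past both of its ends in 21.2% and was staggered against it in 19.3%. The reads per kb of the 2 marks in a pair had a Spearman correlation of 0.449 and their widths one of 0.270. These are descriptions across regions of 2 libraries from the same cells, and regions are not independent replicates. In 1182 pairs of H3K4me3 and H3K27me3, H3K27me3 was mostly the wider, with 7.0 kb against 3.0 kb. It ran past both ends of the H3K4me3 region in 47.6%, was staggered against it in 44.3% and lay inside it in 2.71%. In 247 pairs of H3K27me3 and H3K27ac, 80.2% were staggered, so the regions met at an end.

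H3K27me3 was far more frequent at H3K4me3 regions without H3K27ac than at those with it. Of 3851 H3K4me3 regions without H3K27ac, 1070 overlapped H3K27me3, or 27.8% (26.4 to 29.2%), and moved H3K27me3 lists met 8.11% (6.70 to 9.45%). Of 11616 with H3K27ac, 347 overlapped H3K27me3, or 2.99% (2.69 to 3.31%), against 10.3% (9.23 to 11.7%) for moved lists. These classes thus stood above and below their moved levels. The 1070 regions carry the pair of marks that defines bivalent promoters, although whether each is a promoter, and whether both marks are on the same chromosome copy and in the same cells, was not tested. H3K27me3 covered 701 of them, or 65.5%, from end to end, and 715 at both of their ends. Around their centres H3K27me3 formed a broad rise, covering 86.0% of the centres, 49.6 and 50.6% of positions 5 kb to either side and 27.8 and 28.5% of positions 20 kb away. H3K27ac covered none of the centres, which follows from how the class was defined, and 3.83 and 4.77% of positions 20 kb away. The longest of the 1070 lay on chromosome 15 from 102989401 to 103002800, 13.4 kb with 1296 reads, of which H3K27me3 covered 6.4 kb. The next were 8.8 kb on chromosome 2 from 181190401 to 181199200 and 8.6 kb on chromosome 7 from 53081001 to 53089600. The nearest H3K27ac lay 41.8, 31.4 and 9.4 kb from these 3.

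**Figure D4:**
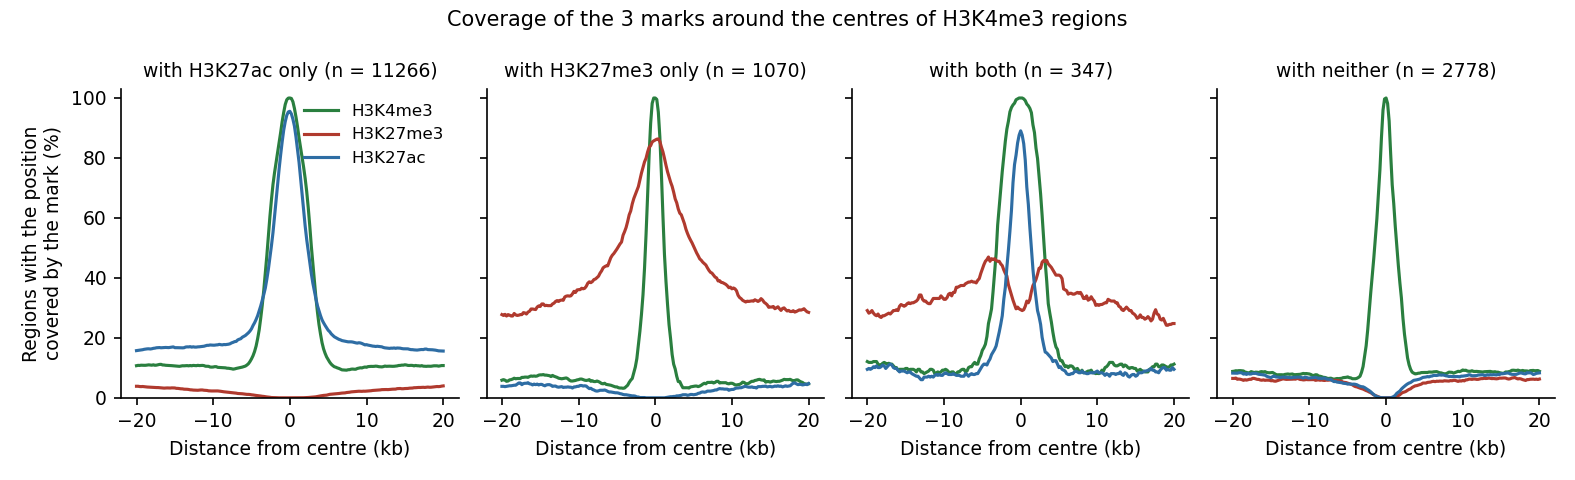
Share of H3K4me3 regions (percent, y axis) whose position at each distance from the region's centre (kb, x axis) was covered by H3K4me3, H3K27me3 or H3K27ac, in 4 panels by the marks that overlapped the region. Regions whose flanks left the chromosome were left out, and the number in each panel is given above it. H3K27me3 covers 86.0% of the centres in the H3K27me3 panel, but in the panel with both marks it dips to 29.4% at the centre, where H3K27ac covers 89.0%.

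Seen from H3K27me3, 24831 regions (94.6%) met no other mark, with a median of 3.6 kb and 14.7 reads per kb. The 1133 with H3K4me3 alone had medians of 7.4 kb and 18.5 reads per kb, and 36.0% of them were 10 kb or more, against 10.2% of those with neither mark. H3K4me3 was present at 0.648% of H3K27me3 regions in the lowest decile of reads per kb and at 19.7% (18.2 to 21.3%) in the highest, where moved lists met 5.59 and 8.36%. In each width class from 1 kb up, regions with H3K4me3 had a higher median read density than those without, for example 17.5 against 14.2 reads per kb at 4 to under 8 kb and 21.9 against 18.7 at 16 kb or more. The longest H3K27me3 region of the list, 171.2 kb with 5132 reads on chromosome 15 from 102737201 to 102908400, held 1 H3K4me3 region of which 2.6 kb lay inside it, and no H3K27ac within 136.2 kb. A region of 130.4 kb on chromosome 19 from 44784601 to 44915000 held 2 H3K4me3 regions, and one of 124.8 kb on chromosome 6 from 52096601 to 52221400 held 1, over 3.4 and 1.6 kb. The longest without another mark spanned 118.8 kb on chromosome 5 from 122356801 to 122475600. Several H3K4me3 regions in one H3K27me3 region were rare: 95 regions held 2, 7 held 3 and 1 held 4. That last region, 55.2 kb on chromosome 1 from 74804001 to 74859200, also met H3K27ac over 4.2 kb. The densest H3K27me3 region of at least 2 kb stood apart from the rest, with 977 reads in 4.0 kb, or 244 reads per kb, on chromosome 17 from 39979801 to 39983800. The next had 66.7 reads per kb. No H3K4me3 lay within 1020.4 kb of the densest region and no H3K27ac within 206 kb. Whether its count reflects the mark or the mapping of reads to repeated sequence was not tested. The control library is not given in the sources used here.

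The 347 H3K4me3 regions with both other marks were above the 0.224% that moved lists gave (0.123 to 0.323%), in which the other marks were moved by the same step and so kept their places relative to each other. With H3K27me3 alone moved, the level was the 10.3% of acetylated regions given above, against the observed 2.99%, so the side on which the 347 stood depended on which list was moved. Overlap with both marks did not mean that all 3 marks covered the same bases. A 200 bp bin with all 3 marks was present in 197 of them, or 56.8%, and absent from 150. The median region lay under H3K27ac over 50% of its length and under H3K27me3 over 28.9%. H3K27me3 reached 1 end of the region in 282 of them (81.3%), both ends in 49 and neither in 16. Of the 1070 regions without H3K27ac, by contrast, 31.6% had H3K27me3 at 1 end and 66.8% at both. Those 1070 were narrower, with a median of 2.4 kb against 6.2 kb for the 347. A narrow region is covered at both ends more easily, and the contrast was not matched for width. In the averaged profile of the 347, H3K27ac covered 89.0% of the centres and H3K27me3 29.4%, while 5 kb away H3K27me3 covered 42.9 and 40.9% and H3K27ac 10.7 and 10.1%. Bins with all 3 marks summed to 0.302 Mb in 203 stretches of a median of 1.4 kb. With the H3K27me3 list moved and the other lists in place, they summed to 3.11 Mb on average (2.69 to 3.91 Mb). The longest such stretches were 6.8 kb, on chromosome 19 from 45149201 to 45156000 and on chromosome 3 from 89120401 to 89127200, and 4.8 kb on chromosome 2 from 122123401 to 122128200. The longest H3K4me3 region of the line, 48.0 kb with 9425 reads on chromosome 10 from 79596001 to 79644000, was among the 347. H3K27ac lay over 42.6 kb of it and H3K27me3 over 1.6 kb.

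H3K27ac regions without H3K4me3 or H3K27me3 numbered 8271, or 41.9% (41.2 to 42.6%). Active enhancers fall into this kind of class, but these regions were not compared with any enhancer annotation. They had a median of 23.1 reads per kb, against 35.8 in the 11200 with H3K4me3 alone, and in every width class regions with H3K4me3 were denser than those without, as with 33.2 against 21.3 reads per kb at 2 to under 4 kb and 46.5 against 36.7 at 16 kb or more. Their median width was 3.8 kb against 4.4 kb. The order of widths depended on the list: the ratio of medians with over without H3K4me3 was 1.16 in the full list and 0.806 among regions with at least the median count. The share of H3K27ac regions with H3K4me3 climbed with density through all deciles, from 11.5% (10.2 to 13.0%) to 92.0% (90.7 to 93.1%), while moved lists went from 5.21 to 8.39%. The share with H3K27me3 fell from 2.33% in the lowest decile to 0.456% in the highest. Most H3K27ac regions with H3K4me3 held 1 such region. The 476 that held 2 had a median width of 15.3 kb and the 62 that held 3 had 24.0 kb. The longest, 81.0 kb with 5193 reads on chromosome 3 from 95435201 to 95516200, and the next, 79.0 kb on chromosome 6 from 31007201 to 31086200, each held 4. The longest without another mark lay on chromosome 17 from 26728801 to 26763400, 6.4 kb from the nearest H3K4me3. It spanned 34.6 kb and had 66.5 reads per kb. Both of the densest H3K27ac regions of at least 2 kb lay next to each other on chromosome 15, from 101145401 to 101154400 and from 101155201 to 101175800, with 145 and 143 reads per kb. H3K4me3 covered 8.2 kb of the first, which is 9.0 kb long, and 3.0 kb of the second, which is 20.6 kb long.

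By median distance, regions that did not overlap another mark still lay nearer to it than in moved lists. The median distance, end to end, from H3K27ac regions without H3K4me3 to the nearest H3K4me3 region was 27.4 kb (interval of the median 26.2 to 28.6 kb), against 138 kb in moved lists. From H3K4me3 regions without H3K27ac to the nearest H3K27ac it was 30.6 kb, against 128 kb. H3K27me3 was farther from both, with 76.8 kb to H3K4me3 and 83.8 kb to H3K27ac, against 136 and 124 kb in moved lists. The distance to H3K27me3 differed between classes of H3K27ac. It was 138.2 kb from regions with neither mark and 87.2 kb from those with H3K4me3. Among H3K4me3 regions it was 91.0 kb from those with H3K27ac and 70.6 kb from those with neither mark. Moved levels were not read for these classes. Seen from H3K27me3 regions, the order against moved lists turned with distance for both other marks. Of all H3K27me3 regions, 3.57% had an H3K27ac region within 5 kb without overlap, against 6.15% in moved lists. Within 100 kb 56.0% had one, against 42.1%. For H3K4me3 the values were 4.67 against 5.33% within 5 kb and 56.1 against 41.3% within 100 kb. From H3K27ac to H3K27me3 the difference within 5 kb was small, 4.40 against 4.65%. From H3K4me3 to H3K27me3 the order did not turn, with 5.84 against 4.49% within 5 kb and 48.8 against 30.8% within 100 kb.

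The step at region borders gave the same picture at 200 bp resolution. At 6066 borders of H3K27me3 regions of 10 kb or more, H3K27ac covered 3.87% of positions 19.9 kb outside, 1.30% of the bin just outside and 0.247% of positions 4.9 kb inside, against 4.40% of the autosomes. At 4396 borders of H3K27ac regions of that width, H3K27me3 covered 3.46% of positions 19.9 kb outside and 0.819% at 2.1 kb outside, against 5.85% of the autosomes. H3K4me3 behaved differently at the 2 kinds of border. It covered 12.6% of positions 19.9 kb outside H3K27ac regions, 8.08% at 2.1 kb outside and 15.7% of the bin just outside. At 4.9 kb inside it covered 47.5%, against 3.23% of the autosomes. Across H3K27me3 borders it stayed between 2.42 and 4.45% at the distances read out.

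**Figure D5:**
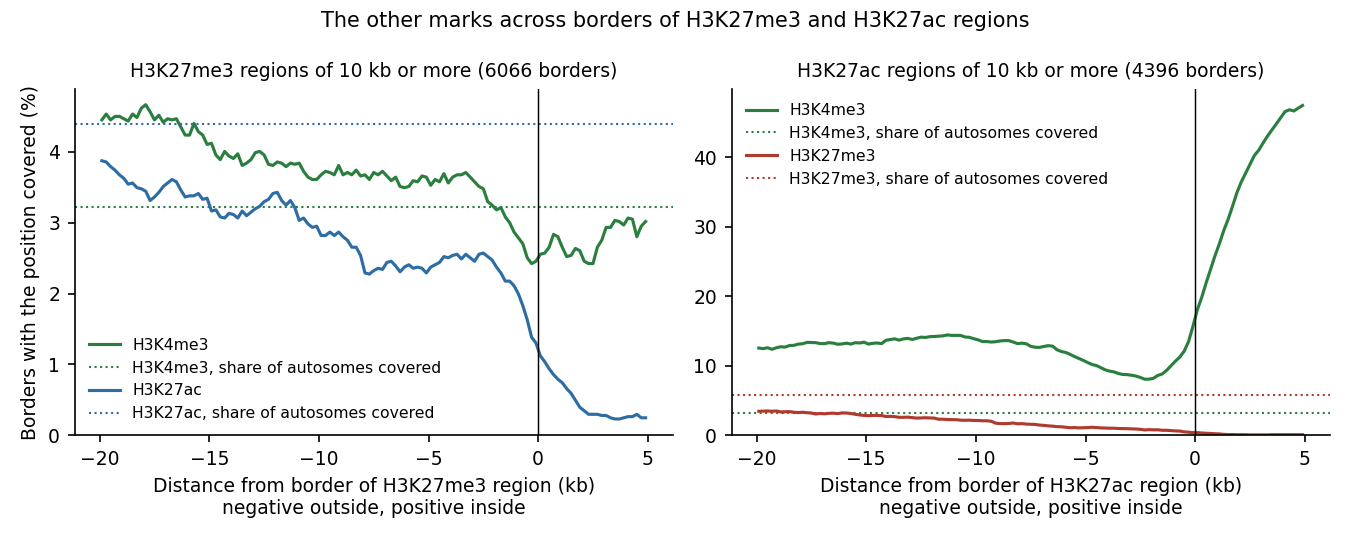
Share of region borders (percent, y axis) with the position covered by another mark, by distance from the border in kb (negative outside, positive inside), for H3K27me3 regions (left, 6066 borders) and H3K27ac regions (right, 4396 borders) of 10 kb or more. Dotted lines are the share of the autosomes each mark covered. H3K27ac drops to 0.247% at 4.9 kb inside H3K27me3 regions, and H3K4me3 rises to 47.5% at 4.9 kb inside H3K27ac regions. The y axes differ.

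Over stretches of 1 Mb the covered lengths of all 3 pairs of marks went together, H3K27me3 and H3K27ac included, whose regions were almost separate. Across 2463 windows, the covered lengths of H3K4me3 and H3K27ac had a Spearman correlation of 0.908, those of H3K4me3 and H3K27me3 0.657 and those of H3K27me3 and H3K27ac 0.599. The windows share gene density and mappable length, and 355 had no mark. Over the 2108 with any mark the values were 0.872, 0.535 and 0.456. Among the 493 windows with the most H3K27me3, a median of 67.8 kb was under H3K27ac, against 22.2 kb in the 493 around the middle of that order. On every autosome H3K27ac overlapped most H3K4me3 regions and few H3K27me3 regions. Moved levels were read over all autosomes together, not for each. H3K27ac overlapped between 63.5% (chromosome 4) and 80.0% (chromosome 19) of the H3K4me3 regions, and H3K27ac overlapped between 0.114% (chromosome 14) and 2.04% (chromosome 15) of the H3K27me3 regions. H3K27me3 overlapped between 3.66% (chromosome 16) and 13.6% (chromosome 15) of the H3K4me3 regions. The length under H3K27me3 ranged from 1.60% of chromosome 4 to 12.0% of chromosome 19. Chromosome 4 was also lowest in the share under H3K27ac, 2.65%, and in the median read density of H3K4me3 and H3K27ac, 114 and 27.5 reads per kb.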

How the data were processed

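The authors' deposited lists, 1 per library, give chromosome, start, end and a whole number for each region, used as its count of reads. No header names the columns, and this reading rests on the values and on SICER's usual format. Bowtie 1.1.2 and SICER 1 on mm9 are named in the submitters' processing notes. Not given in the sources used here are the control library, false discovery rate, window and gap settings, and library totals.

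The members and lists were chosen with earlier results of these data known. Regions on autosomes 1 to 19 were turned into bins of 200 bp with Python 3.11.15, numpy 2.4.6, pandas 2.3.3 and scipy 1.17.1, and mm9 lengths from GenomeInfoDb 1.38.1. Overlap counts of the 6 ordered pairs were recomputed with bedtools 2.31.1, and 0 pairs differed. The bin arithmetic was tested on lists with known answers. In each pair the list of the second mark was moved. Reads per kb are a region's count over its length. Named regions are taken from the 3 longest per mark and class, the 3 densest of at least 2 kb per mark and the 3 longest stretches of all marks. Positions are 1-based. The gene, promoter and miRNA tables used here belong to GRCm38.p6, so no gene was named and no sequence printed.

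Alternatives were regions with at least the median count, regions under 1 kb apart joined, an overlap of 50% of the region, lists of the same covered length, chromosomes X and Y included, and moves of 1 to 5 Mb in either direction.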

Additional observations from a re-analysis of the deposited data

Results flagged for a closer look

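Chromosome X was outside the comparisons above and carried all 3 marks. Its lists held 506 H3K4me3 regions, 48 H3K27me3 regions and 577 H3K27ac regions, with no control sample to set them against. H3K27me3 covered 0.0848% of chromosome X, against 1.60 to 12.0% by autosome. H3K4me3 covered 1.17% and H3K27ac 1.09%, against lowest autosome values of 1.97 and 2.65%. The line is labelled male, and a lower copy number of chromosome X than of autosomes was not allowed for in these values. Of the 48 H3K27me3 regions, 33.3% overlapped H3K4me3, against 3.33 to 7.25% by autosome.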

How the results depend on the processing

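Each mark had 1 library, so leaving out a library was not run, and the intervals below cover counting error only. No paired analysis was possible because the result comes from no test. The H3K27me3 list had the fewest reads in regions, 2394056, and library depth is unknown. With chromosomes X and Y included, all 21 values recomputed stayed within the 95% interval of the value for autosomes. The ratio of H3K27ac widths with over without H3K4me3 turned direction under 3 settings. Cutting lists to the same covered length also turned the order of the median widths of the marks. It turned the side of the moved level for H3K27me3 regions with H3K4me3 too, from 5.07 against 6.43% to 13.6 against 10.2%. The cause was not tested. Such a cut by count favours long regions and left the H3K4me3 list whole.

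With only regions of at least the median count, the overlapped shares of H3K4me3 were 3.08% by H3K27me3 and 64.9% by H3K27ac, those of H3K27me3 were 1.82% by H3K4me3 and 0.548% by H3K27ac, and those of H3K27ac were 52.0% by H3K4me3 and 0.727% by H3K27me3. Both marks overlapped 1.18% of the H3K4me3 regions. The Jaccard indices were 0.288 for H3K4me3 and H3K27ac, 0.00365 for H3K4me3 and H3K27me3, and 0.000666 for H3K27me3 and H3K27ac. Median widths were 6.6 kb for H3K4me3, 6.2 kb for H3K27me3 and 6.4 kb for H3K27ac. Ratios of medians with over without the other mark were 1.32 for width and 1.20 for reads per kb in H3K4me3 by H3K27ac, 0.806 and 1.28 in H3K27ac by H3K4me3, and 1.26 and 1.20 in H3K27me3 by H3K4me3. Distances to H3K4me3 were 41.4 kb from H3K27ac and 106 kb from H3K27me3.

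With lists of the same covered length, in the same order, the shares were 6.18 and 48.4% of H3K4me3, 13.6 and 0.807% of H3K27me3 and 71.6 and 0.528% of H3K27ac, and both marks overlapped 0.511% of H3K4me3. The indices were 0.318, 0.0150 and 0.000692. Median widths were 9.6 kb for H3K27me3 and 6.6 kb for H3K27ac. The ratios were 1.68 and 1.62, 0.886 and 1.33, and 1.13 and 1.20, and the distances were 23.2 and 53.0 kb.

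An overlap of at least 50% of the region gave shares of 6.69 and 60.6% of H3K4me3, 1.26 and 0.122% of H3K27me3 and 48.4 and 0.476% of H3K27ac, and 0.336% of H3K4me3 with both. The ratios were 1.35 and 1.52, 0.909 and 1.49, and 1.05 and 1.23.

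With regions under 1 kb apart joined, 12 of 21 values stayed within their interval. The others were 76.0% of H3K4me3 by H3K27ac, 5.71 and 1.20% of H3K27me3, 59.6% of H3K27ac by H3K4me3, a median width of 4.0 kb for H3K27me3, ratios of 2.07 and 2.32 for H3K4me3, and distances of 30.4 and 78.6 kb.

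Moves of 1 to 5 Mb raised all 7 moved levels, to 12.6 and 9.93% of H3K4me3, 8.25 and 10.4% of H3K27me3, 7.87 and 12.5% of H3K27ac and 0.368% of H3K4me3 with both. Against these, the observed 9.16% of H3K4me3 regions with H3K27me3 lay below.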
